A study of Mus musculus with 2 samples.

Results

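Prm1, Prm2, Tnp1 and Tnp2 encode the 2 protamines and the 2 transition proteins of mouse spermatids. They are 4 of 11142 named genes on the arrays of this study, and were read by 6 of 15208 non-control probes, chosen by the gene name in the array files: 3 probes for Prm1 and 1 each for Prm2, Tnp1 and Tnp2. In the control library all 6 spots were saturated, and in the busulphan library none was. After scaling of each array to its 75th percentile, all 6 probes were lower in the busulphan library, by at least 3.55-fold to at least 98.3-fold. With quantile normalization 1 bound was short of 2-fold. Of all 12852 probes compared, 29.0% were at least 2-fold lower, as were 79.8% of the 94 others saturated in control alone. Because of the saturation none of the 6 folds could be measured in full.

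Both libraries were made from testis of male Swiss mice, adults of 3 months. The labels call the preparations isolated Sertoli cells, which are the somatic cells that nurse germ cells inside the seminiferous tubule. The control mice received no treatment, and the others had been given busulphan, an alkylating drug used to deplete germ cells, at 25 mg/kg body weight 1 month earlier. The cells were digested out of the tubules with collagenase and hyaluronidase, passed through a 100 µm strainer, collected from a 40 µm strainer and lysed without culture, so that whatever else the finer strainer held is part of each library. Total RNA (500 ng) was labelled with Cy3 and hybridised to 1 single-colour Agilent array per group. How many mice went into a preparation is not stated in the labels. With n = 1 per group no difference has a replicate check and there is no p-value, and preparation, labelling and array cannot be told apart from treatment. In such bulk RNA, fewer cells of a type and less RNA per cell cannot be told apart either.

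Sperm chromatin is packed without most of its histones. In elongating spermatids the histones are first loosened and replaced by the transition proteins, small basic proteins that occupy the DNA for a short time, and these are in turn replaced by protamines, which are arginine-rich and, once linked through cysteine, hold the DNA in the condensed state of the sperm head. The 4 genes are transcribed in round spermatids, their mRNAs are stored under translational repression, and the proteins appear later. They are textbook markers of haploid germ cells and are not made by Sertoli cells.

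The probe that reads the coding part of Prm1 shows what a protamine is, and the probe of Tnp2 shows how the second transition protein differs from it. The Prm1 probe A_51_P162984 lies on mouse build mm9 at chr16:10796597-10796748 on the minus strand. That interval of 152 bases exceeds the 60 bases of the probe by 92, so the probe is not contiguous on the genome. Read in the frame that starts at base 3, 12 of its 19 triplets encode arginine (capitals) and 4 encode cysteine. The Tnp2 probe A_51_P321449 lies at chr16:10788572-10788631 (mm9, minus strand), and in the frame that starts at base 1, 5 of 20 triplets encode cysteine (capitals), 3 histidine and 1 arginine. Neither frame holds a stop codon, and both were chosen for their share of the marked triplets. Neither reading frame is annotated in the array files.
Prm1 probe A_51_P162984: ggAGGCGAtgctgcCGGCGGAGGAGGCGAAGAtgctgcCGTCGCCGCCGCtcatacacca
Tnp2 probe A_51_P321449: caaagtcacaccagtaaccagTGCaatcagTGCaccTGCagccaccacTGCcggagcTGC

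The other 4 probes also had 60 bases on the minus strand of mm9. Those of Prm1 were A_52_P533287 at chr16:10796526-10796585 and A_52_P533280 at chr16:10796450-10796509, both downstream of the coding probe in the direction of transcription. The Prm2 probe A_51_P138705 was at chr16:10791549-10791608 and the Tnp1 probe A_51_P151020 at chr1:73061834-73061893. The array files give no exon or untranslated region for any of them. Prm1, Prm2 and Tnp2 thus lay within 1 short stretch of chromosome 16, and Tnp1 lay apart on chromosome 1.

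The 4 genes were all lower in the busulphan library than in control, and the 250 bases before each transcription start are shown, from RefSeq on build GRCm38.p6. The stretches are chr16:10796824-10797073 for Prm1, chr16:10792106-10792355 for Prm2, chr1:73015900-73016149 for Tnp1 and chr16:10788656-10788905 for Tnp2, all on the minus strand. Capitals mark matches to TGANNTCA, the cyclic AMP response element with its middle bases left free, and to the TATA motifs TATAA and TATATA, searched on both strands.
Prm1: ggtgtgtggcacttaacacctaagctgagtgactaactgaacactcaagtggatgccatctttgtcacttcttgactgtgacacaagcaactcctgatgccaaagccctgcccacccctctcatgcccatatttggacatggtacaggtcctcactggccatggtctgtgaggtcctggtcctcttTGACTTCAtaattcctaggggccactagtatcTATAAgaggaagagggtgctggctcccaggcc
Prm2: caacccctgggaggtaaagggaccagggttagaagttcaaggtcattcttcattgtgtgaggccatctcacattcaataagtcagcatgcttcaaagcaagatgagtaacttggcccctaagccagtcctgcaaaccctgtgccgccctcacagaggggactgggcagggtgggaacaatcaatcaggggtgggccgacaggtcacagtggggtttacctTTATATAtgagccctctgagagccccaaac
Tnp1: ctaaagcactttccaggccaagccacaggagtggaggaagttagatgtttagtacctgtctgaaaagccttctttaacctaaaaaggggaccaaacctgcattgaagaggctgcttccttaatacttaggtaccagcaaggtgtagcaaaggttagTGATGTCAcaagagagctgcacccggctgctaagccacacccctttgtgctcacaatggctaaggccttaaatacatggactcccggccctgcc
Tnp2: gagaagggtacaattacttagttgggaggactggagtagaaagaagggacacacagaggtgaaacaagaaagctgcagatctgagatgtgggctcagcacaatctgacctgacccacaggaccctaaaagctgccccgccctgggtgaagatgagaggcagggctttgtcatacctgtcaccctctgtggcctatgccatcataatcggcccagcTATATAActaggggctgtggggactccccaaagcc

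The free-middle element was matched before Prm1 (TGACTTCA, from base -64 to -57 relative to the start) and before Tnp1 (TGATGTCA, from -94 to -87), and not in the windows of Prm2 and Tnp2. It was chosen after the sequences were seen, and 11.9% of all 32851 upstream windows of the table hold a match. The full element TGACGTCA, held by 1.55% of windows, and its first 5 bases TGACG, held by 17.8%, had no match in any of the 4. TATAA was matched before Prm1 (-32 to -28), Tnp2 (-33 to -29) and, on the other strand, Prm2 (-30 to -26), against 22.8% of windows. TATATA was matched before Prm2 and Tnp2, overlapping TATAA in both, against 5.25% of windows. These matches describe letters, not bound sites.

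In the control library the mean of the pixels was 65535 for each of the 6 probes, the ceiling of the scanner, and every pixel of every spot was saturated, 62 to 68 pixels a spot. In the busulphan library no pixel of these spots was saturated and all 6 were well above background, a flag that the scanner software sets. The processed signal, which is the spot's brightness after the software has subtracted background and divided out a trend across the slide, therefore measures the busulphan level and gives only a floor for the control level. Control processed signals above or below the ceiling come from that trend correction.

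Prm1, the protamine found in all mammals, read 65071 in control and 4470 in busulphan by the coding probe A_51_P162984. By A_52_P533287 it read 64225 and 7297, and by A_52_P533280 it read 62618 and 15269. All 3 probes were at the ceiling in control and below it in busulphan. After each array was scaled to the 75th percentile of its own non-control probes (a signal of 1046 for control and 905 for busulphan), Prm1 was at least 12.6-fold, at least 7.62-fold and at least 3.55-fold lower in busulphan by the 3 probes in that order (log2 ratios of -3.65, -2.93 and -1.83 or below). The software's errors on the control and busulphan spots, combined, came to 0.20 on the log2 scale for each probe. That value does not cover the signal lost above the ceiling. Since the control readings are all at 1 ceiling, the 3 bounds differ through the busulphan readings and, slightly, through the trend correction of the control spots. Probes of different sequence cannot be set against each other in level, so the spread of the bounds is not a spread of folds.

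Prm2, the second protamine, which is made as a longer precursor and trimmed, read 67356 in control and 10982 in busulphan. Its bound was at least 5.31-fold lower (log2 -2.41 or below). Tnp1, the more abundant transition protein, read 64129 in control and 6834 in busulphan, at least 8.12-fold lower (log2 -3.02 or below). Tnp2, the zinc-binding transition protein, read 63918 in control and 563 in busulphan. It was at least 98.3-fold lower (log2 -6.62 or below), the lowest log2 bound of the 6, beside the lowest busulphan reading. The software's error on the busulphan spot alone was 0.14 on the log2 scale for each probe.

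**Figure D1:**
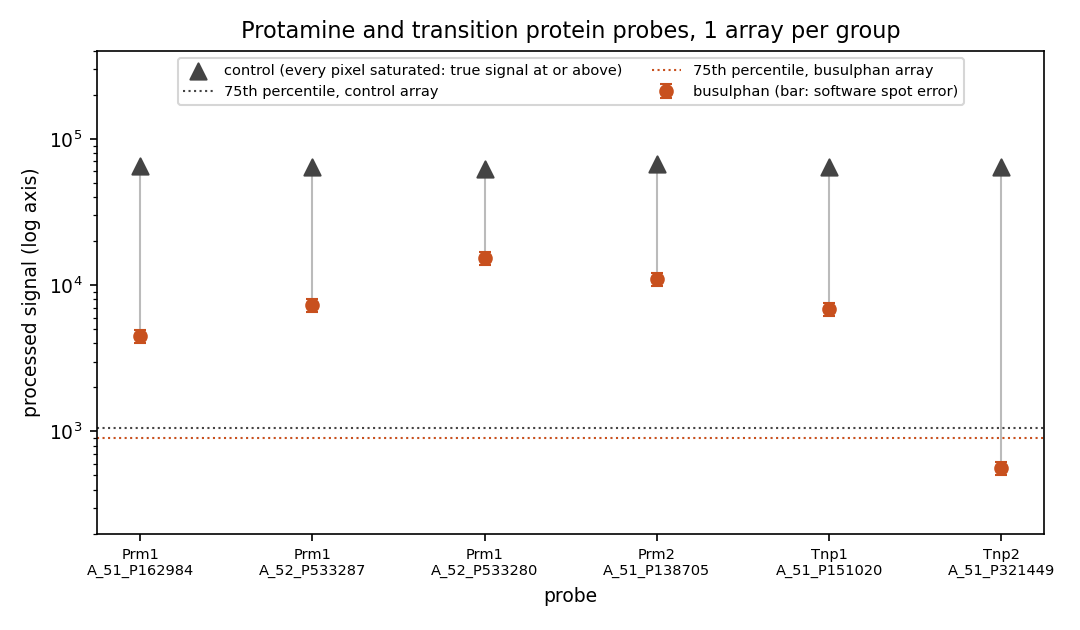
Processed signal (log axis) of the 6 probes on the control array (triangles, saturated, so the true signal is at or above) and on the busulphan array (circles, with the software's spot error); dotted lines give each array's 75th percentile. All control spots sit at the ceiling, while busulphan spots run from 563 for Tnp2 to 15269 for the last Prm1 probe.

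Transcripts of 3 of the 4 genes were still bright in the busulphan library. Prm1 stood at 4.94, 8.06 and 16.9 times that array's 75th percentile by its 3 probes, Prm2 at 12.1 times and Tnp1 at 7.55 times. Tnp2 stood below it, at 0.62 times. The busulphan library was thus low in these transcripts relative to control but still held them well above background, 1 month after the drug. In the deposited log2 table the 6 differences were between -6.62 and -1.82, as in the scanner files.

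A 2-fold difference was the size called here in place of a test. All 6 member probes passed it, where 29.0% of the 12852 probes compared were at least 2-fold lower in busulphan and 31.6% at least 2-fold higher. Those shares depend on the scaling: with 3731 probes lower and 4064 higher in the main scaling, scaling to spike-in controls gave 5904 lower and 2059 higher and moved the median log2 ratio of all genes from 0.07 to -0.81. The members were lower under each scaling tried, with one bound short of 2-fold (Prm1 by A_52_P533280, log2 -0.96 or below with quantile normalization).

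Besides the 6 members, 94 probes compared were saturated on the control array alone, of which 75 (79.8%) had a bound at or below -1 on the log2 scale and the median bound was -2.86. A spot at the ceiling in control can only carry a bound in that direction, so this share is fixed in part by the ceiling. Bright control spots short of the ceiling came close to the same share. Among 194 probes saturated on neither array and with a control signal of 30000 to 60000, 149 (76.8%) were called lower. The middle log2 ratio of those 194 was -2.32. Beside such bright probes, 6 of 6 members called lower is less distinctive than beside the 29.0% of all probes. The 12 probes saturated on the busulphan array alone can only carry a bound the other way, and their median was 1.06. Of the 100 bounds from control, that of Tnp2 was the second lowest after Oaz3, an antizyme of spermatids (at least 145-fold), while the bounds of Tnp1, Prm2 and Prm1 ranked from 39 to 72. These ranks order the bounds that each probe's busulphan reading allows, not the folds themselves.

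**Figure D2:**
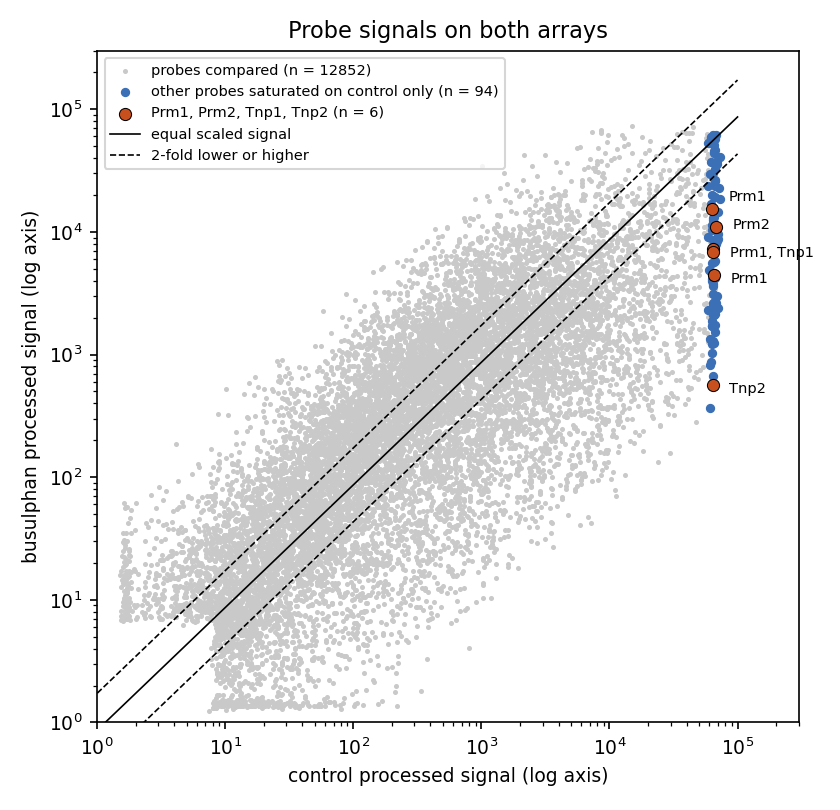
Processed signals of 12852 probes on the control (x, log axis) and busulphan (y, log axis) arrays, with equal scaled signal as a solid line and 2-fold either way as dashed lines. The 6 member probes stand in the column of control-saturated spots at the right, below the 2-fold line, with Tnp2 near its foot.

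How far such a bound can fall short was looked for in other genes. These pairs cannot measure it, because probes of 1 gene also disagreed for reasons other than the ceiling. A saturated control probe and at least 1 unsaturated probe well above background on both arrays were found for 24 named genes, and in 18 of them an unsaturated probe gave a log2 ratio below the bound. In all, 27 of 39 such unsaturated probes lay below it. In 5 of the 24 genes, Dynll2 among them, an unsaturated probe was instead above 0 beside a bound below 0. The genes named next were picked after the values were seen and all lay below their bound. Hils1, the linker histone of spermatids, had a bound of -4.74 by its saturated probe and -6.36 by its unsaturated one, 82.1-fold lower. Gapdhs, the sperm glycolytic enzyme, had -6.36 and -7.13, and Txndc2, a sperm tail thioredoxin, was at least 64.0-fold lower by the saturated probe and 124-fold lower by the other. No unsaturated probe reads any of the 4 members, so their own distance from the bound is unknown.

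Likeness in pattern over 2 arrays can only mean saturation on control and a near equal scaled signal on busulphan. Nearest to Tnp2 were Gapdhs, Txndc2 and H2al2a, a histone variant of spermatids, at distances of 0.26, 0.55 and 0.63 on the log2 scale. Nearest to the coding probe of Prm1 were Hspa4l, Ropn1l and Cetn1, a centrin of the male germ line, all within 0.04. Mael, Fxr1 and Tcp1 were nearest both to Prm1 by A_52_P533287 and to Tnp1. Prm2 had Arl4a, Elob and Ldha nearest, and Prm1 by A_52_P533280 had Eef1d, Dynll1 and Uqcrq. The distances compare busulphan readings of different probes and are a description only.

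Neighbours on the chromosome stood above 0 in the main scaling, with 1 Snn probe as the exception. Within 300 kb of the chromosome 16 members, Socs1, an inhibitor of cytokine signalling 12.6 kb from the coding probe of Prm1, read 585 in control and 1666 in busulphan, 3.29-fold higher. Its log2 ratio was between 0.84 and 1.86 over 6 other scalings. Litaf, an endosomal protein, read 2271 and 21609 by 1 probe and 254 and 2387 by the other, 11.0-fold and 10.9-fold higher. Txndc11 read 1702 and 2943, a log2 ratio of 1.00 just inside 2-fold. Ciita, near background at 9.16 and 11.3, had a log2 ratio of 0.51, which turned to -0.37 with spike-in scaling. Snn was split: 1 probe read 621 and 11.6, 46.2-fold lower, and the other 259 and 246, a log2 ratio of 0.13 that turned below 0 under 5 of 6 other scalings.

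On chromosome 1, Igfbp5, a binding protein of insulin-like growth factors, read 46.4 and 101 at 157 kb from Tnp1, a log2 ratio of 1.33 that stayed above 0 under all 6 scalings. A second Igfbp5 probe was well above background on neither array. Igfbp2 read 402 and 499, a log2 ratio of 0.52 that turned to -0.36 with spike-in scaling. Both neighbours of Tnp1 lay on the other side of 0 from it in the main scaling. Over all genes the median log2 ratio was 0.07 and 31.3% were at least 2-fold higher. Lying above 0 therefore does not set a neighbour apart, on either chromosome.

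**Figure D3:**
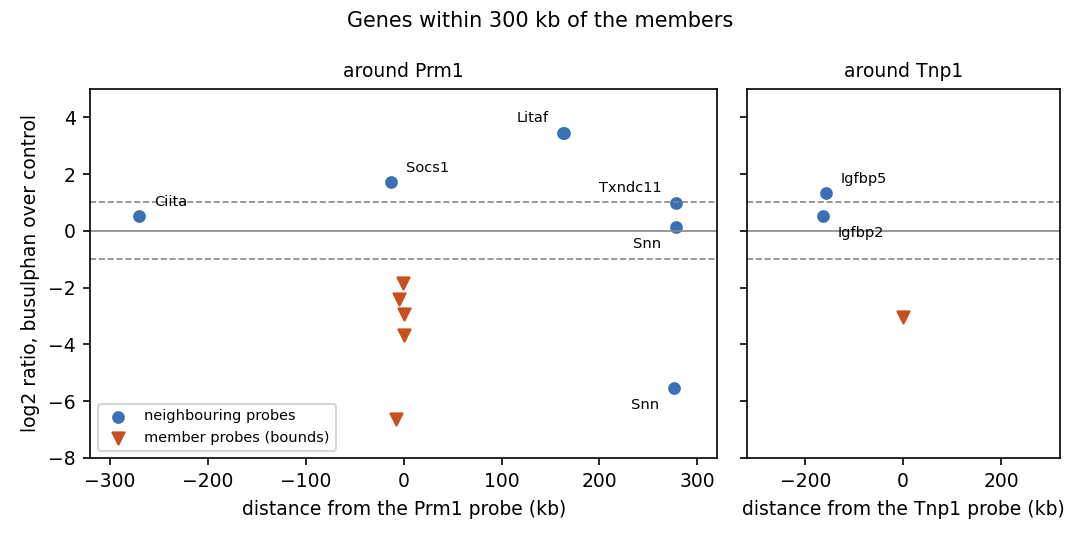
Log2 ratio (busulphan over control) against distance in kb from the coding Prm1 probe (left) and the Tnp1 probe (right), for members (triangles, bounds) and for neighbouring probes within 300 kb (circles). Apart from 1 Snn probe at -5.53, no neighbouring probe is below 0 in this scaling (Ciita, Igfbp2 and the other Snn probe turn with spike-in scaling), while the members run from -6.62 to -1.83.

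Genes listed here for the transcription and translation of the protamines were mostly lower too. Not all of them are specific to protamines. Of 46 listed, 37 were compared, each by its brightest probe: 26 were lower in busulphan by 2-fold or more, 3 higher and 8 within that size, and the median gene was 8.02-fold lower. Over all 9441 genes 29.5% were lower and 31.3% higher, with a median of 0.07. On the log2 scale the median of this list was -3.00, near that of the spermatocyte list (-2.95). The median of other spermatid genes was lower, at -5.44 or below. Among the activators, Fhl5, the spermatid coactivator of CREM, read 14571 in control and 196 in busulphan, 64.2-fold lower, with -5.78 on the log2 scale by its other probe. Kif17, a kinesin that carries this coactivator out of the nucleus, read 3140 and 31.2, 87.2-fold lower, and Sox30, a factor of the spermatid programme, read 2437 and 30.1, 70.0-fold lower. Tbpl1, a germ cell form of the TATA-binding protein, was 11.1-fold lower, with log2 ratios of -3.73 and -0.26 by its other probes. Kdm3a, a histone demethylase that acts at the Prm1 and Tnp1 promoters, was 2.79-fold lower, with -1.73 and 0.60 by its other probes, the last turning to -0.28 with spike-in scaling.

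Crem, whose spermatid isoforms activate protamine and transition protein genes and whose other isoforms are found in many cells, split by probe. Its brightest probe read 20838 in control and 1039 in busulphan, 17.4-fold lower. A second read 4633 and 91.0 (log2 -5.46) and another 1692 and 437 (-1.74). The other 3 read 537 and 900, 407 and 678, and 455 and 507, with log2 ratios of 0.95, 0.94 and 0.36, the last below 0 under 2 of 6 other scalings. So 3 of 6 Crem probes were at least 2-fold lower and 3 were within 2-fold. The array files do not say which isoform a probe reads.

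Among genes of that list that act on mRNA, values lay on both sides. Ybx2, the germ cell protein that binds and represses protamine mRNA, read 35035 in control and 1572 in busulphan, 19.3-fold lower. Papolb, the testis poly(A) polymerase, read 7973 and 186, 37.1-fold lower. Tarbp2, an RNA-binding protein needed for the translation of Prm1 mRNA, read 9560 and 1109, 7.46-fold lower. Dazl, a germ cell activator of translation, was within 2-fold at 0.26, which turned to -0.62 with spike-in scaling. The 3 highest of the list are expressed in many tissues. Prkra, a partner of double-stranded RNA enzymes, was 6.80-fold higher, although its other, dimmer probe gave -0.39. The stress factor Atf4 was 2.86-fold and Paip2, a regulator of the poly(A)-binding protein, 2.62-fold higher, and both were within 2-fold with spike-in scaling, at 0.63 and 0.51.

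Of the genes of histone replacement itself, 29 of 42 listed were compared, of which 16 were lower by 2-fold or more, 4 higher and 9 in between, and the median gene was 2.57-fold lower. The shares over all genes were 29.5% lower and 31.3% higher. Tssk6, a kinase needed for the histone-to-protamine exchange, read 23946 in control and 133 in busulphan, 156-fold lower. H2al2a, which opens nucleosomes to the transition proteins, was at least 61.5-fold lower and the chromodomain protein Cdyl at least 39.3-fold lower, both saturated in control. Hils1 was at least 26.8-fold lower by its brighter probe. Camk4, a kinase that phosphorylates Prm2, read 7328 and 195, 32.5-fold lower, with -1.94 by its other probe. Brdt, the testis bromodomain protein that binds acetylated histones, was 10.6-fold lower, and Hspa2, a chaperone of the transition proteins, 7.18-fold lower with -3.12 by its other probe. The testis histones Hist1h1t and Hist1h2ba, which appear earlier, in meiosis, were 8.24-fold and 4.03-fold lower.

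Highest in that list were Hmgb1, Top2b and Sirt1. Hmgb1, an abundant DNA-bending protein, read 3749 and 15802, 4.87-fold higher, with log2 ratios of 1.95, 1.95 and 0.11 by its other probes, the last below 0 under 3 of 6 other scalings. The topoisomerase Top2b was 3.06-fold and the deacetylase Sirt1 2.86-fold higher, the latter with 0.86 by its other probe. With spike-in scaling Top2b and Sirt1 were within 2-fold, at 0.73 and 0.64. Prm3, H1fnt and Chd5, which belong to the same process, were not analysed here.

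**Figure D4:**
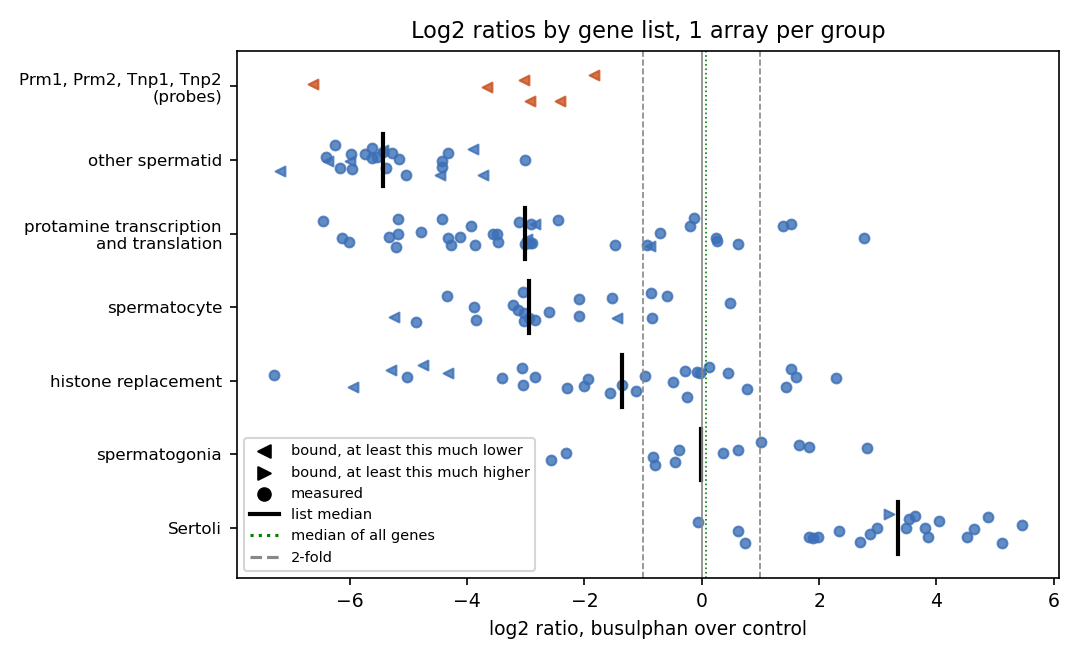
Log2 ratio (busulphan over control) of the 6 member probes and of the genes of 6 lists, each point a gene by its brightest probe, with bounds as triangles, list medians as bars and the median of all genes as a dotted line. The other spermatid genes lie at 8.02-fold lower or beyond and the Sertoli cell markers between -0.06 and 5.46.

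Genes of spermatids and spermatocytes were lower alongside the members and Sertoli cell genes were higher, and the part of cell composition in the result was not tested. All 25 other spermatid genes were lower by 2-fold or more, the median one by at least 43.4-fold, with a summed signal of 825434 in control and 21996 in busulphan. Unsaturated members of that list, such as the actin bundler Fscn3 (84.5-fold lower), show how low such genes could be read. The smallest measured fold of that list was that of Ace (8.02-fold lower). Tekt1 and Hk1, saturated in control, had bounds of at least 13.3-fold and at least 15.0-fold. Of 21 spermatocyte genes, 17 were lower and none higher, with a median of -2.95 and summed signals of 375332 and 51416. Saturated in control were 7 of the spermatid and 2 of the spermatocyte genes, so both control sums are floors. All sums are of processed signals, not scaled between arrays. Of 12 spermatogonial genes, 2 were lower and 4 higher, with a median of -0.01, where 29.5% of all genes were lower and 31.3% higher. Their summed signals were 10488 and 23834, of which Uchl1 alone made up 6211 and 19115.

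All 22 Sertoli cell markers compared were well above background on both arrays. So were all 9 Leydig and all 9 endothelial genes compared. Of all non-control probes, 80.9% were in control and 79.3% in busulphan, and a gene was compared only if well above background on at least 1 array. That count therefore does not show which cell types were present. Of the 22 Sertoli cell markers, 19 were at least 2-fold higher in busulphan and none lower, with a median of 3.34. Their summed signals were 30946 in control and 218216 in busulphan. Clu, saturated in busulphan, made up 8565 and 68019 of these sums, Cst9 9733 and 61372, and Vim 7501 and 33034. All 25 spermatid genes were likewise well above background on both arrays. Of the remaining cell types, macrophage genes had 7 of 12 higher and 2 lower (median 2.14), with summed signals of 66032 and 8601 of which Aif1, saturated in control, made up 62716 there. Leydig cell genes had 4 of 9 higher and 1 lower (0.48), peritubular genes 2 of 6 higher and none lower (0.72), endothelial genes 1 of 9 higher and 3 lower (-0.21) and red blood cell genes 1 of 4 higher and 1 lower (-0.75). Over all genes 29.5% were lower and 31.3% higher, and counts near those shares in such short lists are not read as results about a cell type. Summed signals in control and busulphan were 3163 and 12286 for Leydig, 51935 and 60444 for peritubular, 6038 and 3056 for endothelial and 1776 and 2487 for red blood cell genes. Of the red blood cell sums, Alas2 alone made up 345 and 1754.

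The control array had 80.9% and the busulphan array 79.3% of probes well above background, and 106 and 18 saturated probes. The number of arrays limits the precision of every value above, and the spot error of the software is the only error the files hold.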

How the data were processed

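Intensity values were deposited by the authors as scanner files; the software was Agilent Feature Extraction, version 11.5.1.1 in the file headers, with 1 scan at 1 setting without an extended range. The processed signals are background-subtracted, detrended and not scaled between arrays. Pixel counts per spot, saturated ones included, are per the file headers too. In the table of log2 values deposited for both arrays, each value is the log2 processed signal less 10.03 for control and 9.82 for busulphan. Each array was scaled here to its 75th percentile over non-control probes. Probes marked as outliers (4), well above background on neither array, or saturated on both (6) were left out. A spot saturated or not well above background on 1 array gives a bound, and a bound pointing the other way entered as a log2 ratio of 0. A gene took its brightest probe. A log2 ratio of at least 1 in size was called. Symbols came by accession from a RefSeq table (GRCm38.p6) for 13300 probes, and 1908 kept the file's name. Normexp used limma 3.58.1 (R 4.3.3). The calls and bounds were tested on simulated data. The members, the 11 lists and the rule for named genes were chosen with earlier results of these data known. The rule takes every member probe, all neighbours within 300 kb, the 3 most like genes for each member probe, and the 3 lowest and 3 highest genes of a list with some genes fixed by name. Names from the lists of spermatocytes, spermatogonia, Leydig cells, macrophages and vessels are not repeated here. Exceptions are Aif1, Uchl1 and Alas2, named for their part in a summed signal. Dazl, Uchl1, Alas2, Clu, Cst9, Vim, the genes with saturated and unsaturated probes, the Crem probes and the remarks on other probes were added after the values were seen.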

Additional observations from a re-analysis of the deposited data

How the results depend on the processing

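Under 10 other settings (normexp, 6 scalings, the deposited log2 table, spot medians, measured values in place of bounds) all 6 member probes stayed lower in busulphan. Measured values in place of bounds equal the main values for these probes by construction. The deposited table holds the same processed signals less a constant per array. Neither is a separate check. The bound of Prm1 ranged from -4.54 to -3.09 by A_51_P162984, from -3.81 to -2.34 by A_52_P533287 and from -2.71 to -0.96 by A_52_P533280, that of Prm2 from -3.29 to -1.79, of Tnp1 from -3.90 to -2.43 and of Tnp2 from -7.50 to -6.20. The value of -0.96, from quantile normalization, is short of 2-fold; that method gives bright spots of both arrays like values by construction. At 4-fold 5 of 6 probes passed. The count of higher genes dropped to 1 in the histone replacement list and to 1 in the list of protamine transcription and translation, both with spike-in scaling and at 4-fold, while neither median changed sign. Lower and higher genes of all 9441 numbered 4382 and 1525 with spike-in scaling and 1674 and 1360 at 4-fold, against 2784 and 2952. Saturation, not dimness, limits the members: no setting recovers a control signal above the ceiling. No paired analysis was possible because each group has 1 array. No replicate could be left out for the same reason.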

Other observations

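Among the 24 genes with both a saturated and an unsaturated control probe, 5 had an unsaturated probe above 0 beside a bound below 0. Dynll2, a dynein light chain, was at least 11.4-fold lower by its saturated probe and had a log2 ratio of 1.91 by the other. Ppp1cc, a phosphatase with a testis form, had a bound of -2.09 and 1.97 by its other probe. Rps13, a ribosomal protein, had a bound of -1.11 and 2.06 by its other probe. Ybx1, a Y-box protein, had a bound of -0.88 and 3 unsaturated probes from -2.30 to 1.95, and Arl4a, a small GTPase, had a bound of -2.38 and 2 from -2.94 to 0.27, the last below 0 under 2 of 6 other scalings. Eef1d, a translation elongation factor, went the other way in size, with a bound of -1.92 and -6.07 by its unsaturated probe. These genes were picked after their values were seen, and each probe was read by 1 spot per array.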
